A study of Mus musculus with 24 samples.

Results

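CTCF binding was compared between 3 ChIP-seq libraries of parental cells and 3 libraries of CTCF-degron cells treated with auxin, out of 24 samples in the series. Both groups were v-Abl transformed mouse pro-B lines that carry an Eμ-Bcl2 transgene and lack RAG2. Parental cells received no auxin (indole-3-acetic acid, IAA) and were treated with 3 µM STI-571, an inhibitor of the Abl kinase, for 4 days. The CTCF-degron cells received 500 µM IAA for 6 h, and then STI-571 at the same dose with IAA for 4 days. Cell line and IAA changed together, so that the 2 cannot be told apart here. The labels do not say whether the 3 libraries of a group came from separate cultures, so p-values measure the spread between these libraries, which may be technical. By the titles, replicates 2 and 3 of each group shared an input library marked as spiked in. Replicate 1 of each group had its own input without that mark. Peak names carried the code B1 in degron replicate 1 and A7 in replicates 2 and 3. A further code was JL032, JL023 and JL035 in parental replicates 1 to 3 and JL034, JL025 and JL037 in degron replicates 1 to 3. The labels do not say what the codes mean. The lists hold peak positions with a fold enrichment and a q-value and no measure of expression, so neither the level of CTCF protein nor markers of the cell type could be checked in them.

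Control sites were defined as merged parental peaks on mouse chromosomes that held a peak in all 3 parental libraries. This gave 33715 control sites, of 67726 merged sites with a peak in at least 1 parental library. A control site was called kept in a degron library where that library's list had a peak sharing 1 bp or more with it, and lost otherwise. Position could be assigned for all but 411 control sites, which lie at the distal end of chromosome 12, where the hybrid genome used for alignment has its own coordinates.

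CTCF is a zinc-finger protein that reads a long asymmetric DNA motif and is known to halt cohesin, the ring-shaped complex that extrudes chromatin loops, when cohesin meets the motif from one side. In lymphocyte precursors these halts shape the loops along which the V(D)J recombinase scans antigen receptor loci. An auxin-inducible degron is a tag that, once auxin is added, brings a ubiquitin ligase to the tagged protein and leads to its destruction in the proteasome. The core of the motif was searched on both strands as CCA, then any 2 bases, then AGGGGGC, and a site was said to hold a core where at least 9 of the 10 fixed letters matched within the 300 bp around its centre. A core was found in 43.6% of control sites and in 3.39% of windows of the same length 5000 bp away.

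Sequences of strong parental sites away from promoters, lost and kept, are shown first. They are given 5′ to 3′ on the strand of the best match, with the 12 letters aligned to the core in capitals (mm9 coordinates). The first 6 sites are the strongest parental sites in introns or intergenic sequence that held no peak in any degron library. Each is named by the nearest start of a protein-coding gene.
Fam129b, lost, intron, chr2:32768092-32768151, + strand: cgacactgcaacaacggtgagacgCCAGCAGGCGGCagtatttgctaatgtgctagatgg
Fbxl17, lost, intron, chr17:63763723-63763782, + strand: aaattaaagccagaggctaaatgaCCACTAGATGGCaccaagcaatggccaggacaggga
Mrc1, lost, intron, chr2:14217214-14217273, - strand: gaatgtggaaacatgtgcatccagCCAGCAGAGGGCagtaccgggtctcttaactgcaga
Fam69b, lost, intergenic, chr2:26502480-26502539, + strand: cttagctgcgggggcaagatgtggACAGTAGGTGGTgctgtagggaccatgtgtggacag
Atp6v1b2, lost, intergenic, chr8:71642931-71642990, + strand: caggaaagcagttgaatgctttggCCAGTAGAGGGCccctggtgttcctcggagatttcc
Arap1, lost, intergenic, chr7:108561496-108561555, + strand: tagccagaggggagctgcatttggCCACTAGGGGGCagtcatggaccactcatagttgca

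The next 6 are the strongest parental sites of the same positions that held a core and no repeated sequence and were kept in all 3 degron libraries. This set was chosen after the values were seen. The lost set was not filtered for a core, so a likeness in the core between the sets follows in part from this choice. The kept sites of these positions picked without the filter matched 5, 7 and 7 letters in introns (Chl1, Cdk8 and Cdk5rap2). In intergenic sequence they matched 8, 6 and 9 (Gm5614, Gm10800 and Pak3).
Zkscan17, kept, intron, chr11:59338956-59339015, + strand: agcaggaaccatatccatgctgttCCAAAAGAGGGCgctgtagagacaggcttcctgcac
Fpgs, kept, intron, chr2:32545072-32545131, + strand: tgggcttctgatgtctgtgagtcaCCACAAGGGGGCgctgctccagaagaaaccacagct
Fam92b, kept, intron, chr8:122702948-122703007, + strand: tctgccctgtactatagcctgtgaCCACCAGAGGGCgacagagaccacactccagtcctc
1500012F01Rik, kept, intergenic, chr2:166897646-166897705, + strand: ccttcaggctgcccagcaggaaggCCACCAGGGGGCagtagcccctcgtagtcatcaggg
Gm5533, kept, intergenic, chr1:183819063-183819122, + strand: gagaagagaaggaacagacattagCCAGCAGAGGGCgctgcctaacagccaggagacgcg
Rbm19, kept, intergenic, chr5:120552917-120552976, - strand: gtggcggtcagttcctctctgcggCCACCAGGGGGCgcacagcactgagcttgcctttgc

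Arap1 on the lost side and Fpgs, 1500012F01Rik and Rbm19 on the kept side match all 10 letters, so a full core was present on both sides. Other strong kept sites held no core. Those picked by the rule for named sites include an intronic site nearest to Cdk5rap2 (which encodes a centrosomal protein) and an intergenic site near Gm5614. The sequences of these 2 sites share 56 of 60 bases although they lie on different chromosomes.
Cdk5rap2, kept, intron, chr4:70039165-70039224, - strand: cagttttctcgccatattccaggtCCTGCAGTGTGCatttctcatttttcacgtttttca
Gm5614, kept, intergenic, chr9:35113012-35113071, - strand: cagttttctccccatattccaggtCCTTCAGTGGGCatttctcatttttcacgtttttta

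Most control sites held no CTCF peak in the degron cells. Replicate 1 kept 20.9% of the control sites, replicate 2 kept 25.8% and replicate 3 kept 14.3%, a mean of 20.4% ± 5.76 (SD, n = 3). As a baseline, sites defined on the other parental libraries held a peak in the left-out parental library in 92.5% ± 0.660 of cases (SD, n = 3). Of the control sites, 24187 (71.7%) were lost in all 3 degron libraries and 4350 (12.9%) were kept in all 3. A further 2808 sites were kept in 1 library and 2370 in 2. The libraries kept overlapping sets. Of the sites kept in replicate 3, which had the shortest list, 92.3% were also kept in replicate 1 and 95.9% in replicate 2. The counts depend on the overlap asked for: with at least 50% of a site covered by peaks, 6.22% ± 2.84 (SD, n = 3) of control sites were kept. Replicates could also not be compared at equal depth, since the lists carry no read counts and the depth is unknown.

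The parental lists held 52357, 47558 and 46657 peaks and the degron lists 15510, 15754 and 8215. The groups did not overlap, and the degron mean was 3.87-fold lower on the log2 scale (difference -1.95, p = 0.1 by an exact two-sided permutation test, which cannot go lower with 3 libraries a group, adjusted p = 0.125 over 5 tests by Benjamini-Hochberg). Peaks were also narrower, with a mean width of 376 ± 14 bp in parental and 306 ± 13.1 bp in degron libraries (SD, n = 3 each, exact permutation p = 0.1). The sites that were kept also met less peak length. For each site the widths of all peaks of a list that met it were summed. At 3265 single-copy sites kept in all 3 degron libraries, the median sum was 652, 660 and 620 bp in the parental libraries. It was 295, 437 and 196 bp in the degron libraries. Several peaks at a site add to this sum, so it is not the width of single peaks.

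The loss was uneven over the kinds of site. Peaks away from promoters that held a core numbered 16132 ± 562 in parental and 1751 ± 705 in degron libraries, 9.70-fold fewer (SD, n = 3 each). Peaks away from promoters without a core were 3.69-fold fewer, and promoter peaks with a core 3.67-fold fewer. Promoter peaks without a core were 1.82-fold fewer, at 7048 ± 1538 in parental and 4142 ± 1797 in degron libraries. The groups did not overlap in any of these 4 numbers, and each had an exact permutation p = 0.1. A promoter is taken here as the 1000 bp on either side of a protein-coding transcript start.

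**Figure D1:**
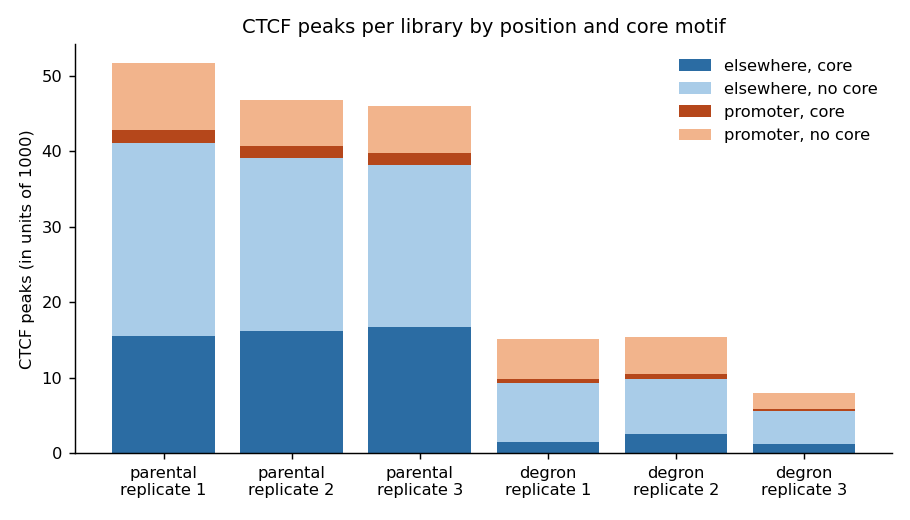
Number of CTCF peaks (y axis, in units of 1000) in each of the 6 libraries, stacked by position (promoter or elsewhere) and presence of a core motif; each bar is 1 library. Peaks elsewhere with a core average 16132 in parental and 1751 in degron libraries, and promoter peaks without a core 7048 and 4142.

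The makeup of the lists differed as well. Promoter peaks made up 20.4, 16.6 and 17.1% of the parental lists and 38.9, 36.2 and 29.8% of the degron lists, a difference of 16.9 percentage points. Peaks with a core made up 33.4, 38.0 and 39.9% of the parental lists and 13.6, 20.5 and 18.5% of the degron lists, a difference of -19.6 points. Neither measure overlapped between the groups (exact permutation p = 0.1, adjusted p = 0.125 for each). Intronic peaks made up 36.4% ± 0.785 of parental and 20.9% ± 0.467 of degron lists (SD, n = 3 each), again without overlap. The intergenic share was 41.6% ± 1.15 in parental and 41.3% ± 4.74 in degron libraries, a difference of -0.33 points that lay within the spread (exact permutation p = 0.9). Peaks in CpG-rich sequence, here a GC content of at least 50% with a CpG observed/expected ratio of at least 0.6, made up 11.5% ± 1.58 of parental and 31.1% ± 3.79 of degron lists with no overlap between groups (exact permutation p = 0.1). Sequence of this kind marks the start sites of most broadly expressed genes.

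By gene position, promoters kept the largest share among control sites. At 5156 promoter sites, 45.2, 47.1 and 23.8% were kept in the 3 degron libraries, and 21.7% were kept in all 3, against 12.7% of all annotated control sites. Intergenic sites followed with 21.9% ± 5.52 kept (n = 14317 sites), then exonic sites with 15.0% ± 4.51 (n = 1420) and intronic sites with 11.1% ± 3.75 (n = 12411), where SD is over 3 libraries. Intronic sites were lost in all libraries in 83.6% of cases, against 72% of all annotated sites. The promoter share exceeded that of sites elsewhere in each of the 3 libraries, by 21.9 ± 9.31 points (range 11.4 to 29.0; exact permutation test by sign flips, p = 0.25, a floor set by having 3 libraries, adjusted p = 0.25 over 4 tests). It was 5.45 ± 4.68 points with at least 50% of a site covered, 9.37 ± 4.27 with q of 0.001 or less and 12.6 ± 6.03 with starts within 2500 bp. The parental baseline was 89.1% at promoters and between 92.9 and 94.3% at the other positions.

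Of the 1121 promoter sites kept in all libraries, 778 were CpG-rich. CpG-rich promoter sites were kept in 62.3, 63 and 32% of cases (n = 2610), a mean of 52.4% ± 17.7, and the other promoter sites in 24.6% ± 8.19 (n = 2546; SD over 3 libraries). Away from promoters the same order held, with 44.3% ± 9.27 of 643 CpG-rich sites and 16.1% ± 4.59 of 27505 other sites kept. At CpG-rich promoters the shares with and without a core differed by less than the spread, with 54.3% ± 15.2 kept where it was present and 52.0% ± 18.2 where it was absent. At promoters that were not CpG-rich, 15.3% ± 6.65 were kept with a core and 34.5, 36.1 and 19.3% without in the 3 libraries. Replicate 3 kept the fewest sites in each of these promoter classes.

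As groups, the sites kept in all libraries and those lost in all differed in rank and width. Kept sites had a median parental percentile rank of 84.4 and a median width of 802 bp, and lost sites 62.4 and 507 bp. A wider site can be met by a 1-bp overlap more easily, and the part of width in the kept share was not tested. Promoters made up 26.4% of kept and 9.88% of lost sites, and introns 19.4 and 43.3%.

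In each degron library a smaller share was kept of sites with a core than of sites without one. The difference was -12.6 ± 2.63 points over the 3 libraries (range -15.3 to -10.0; exact sign-flip permutation p = 0.25, adjusted p = 0.25). It was smaller with repeated sequence left out (-7.91 ± 2.87 points), with multi-copy centres left out (-6.44 ± 2.86), with at least 50% of a site covered (-6.61 ± 1.46), with q of 0.001 or less (-4.61 ± 0.731), with shortened lists (-4.43 ± 0.894) and with all 10 letters required (-3.41 ± 2.60), and larger with 8 letters enough (-20.7 ± 2.89). A fold enrichment of 4 or more gave -7.63 ± 1.45. By the best match in the 300 bp, 36.3% ± 7.14 of sites with 7 or fewer matching letters were kept, 18.6% ± 6.06 with 8, 12.4% ± 4.77 with 9 and 17.0% ± 7.20 with all 10. With repeated sequence left out, sites with 7 or fewer letters were kept in 28.6% ± 8.12 of cases. The share thus did not fall further from 9 to 10 letters, where the values overlap within their spread. Sites kept in all libraries were wider than those lost in all (median 802 and 507 bp), but only the central 300 bp were searched. A core farther out in a wide site was not counted, and the part of this in the difference was not tested.

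The share kept was high at both ends of the parental strength scale and low in the middle. Strength was ranked by the mean percentile rank of the authors' fold enrichment within the 3 parental lists. In the weakest decile of control sites 29.0% ± 7.51 were kept, in the sixth decile 7.52% ± 3.25 and in the strongest decile 53.5% ± 11.5 (SD over 3 libraries). The strongest quartile exceeded the weakest by 16.5 ± 8.77 points, in each of 3 libraries (exact sign-flip permutation p = 0.25, adjusted p = 0.25). With at least 50% of a site covered this difference was -1.01 ± 6.11 points (SD, n = 3). It was 10.8 ± 8.25 with sites of at least 2 parental libraries and 9.26 in replicate 1 of each group alone, and 28.2 ± 11.7 with q of 0.001 or less, 30.7 ± 9.60 with a fold enrichment of 4 or more and 30.5 ± 0.672 with shortened lists.

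**Figure D2:**
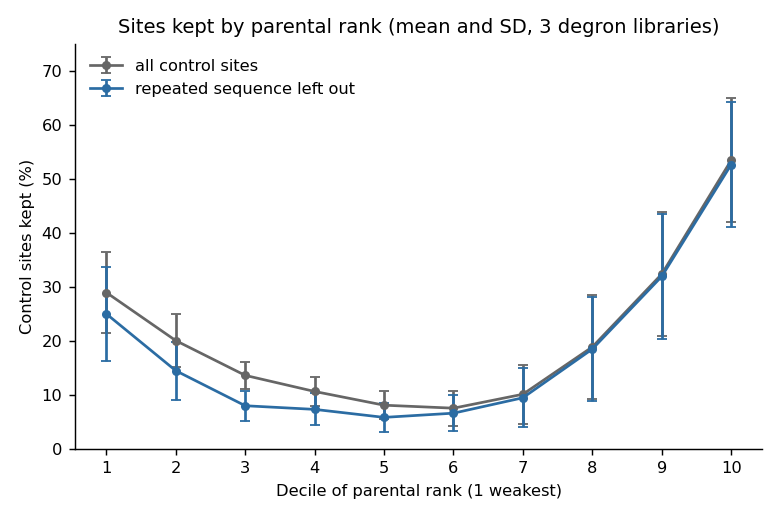
Percent of control sites kept (y axis) in each decile of parental rank (x axis, 1 weakest), as the mean and SD of 3 degron libraries, for all control sites and with repeated sequence left out. Both curves are lowest in the fifth or sixth decile and highest in the strongest, at 53.5% and 52.7%.

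With the sites split by position and core, the higher share at the weak end was absent only from core sites away from promoters. Every other class was kept more in the weakest than in the second quartile, in each library. Sites in repeated sequence are left out of these values. The lowest fold enrichment was 3.37, 3.31 and 3.54 in the parental lists and 3.94, 3.96 and 4.06 in the degron lists. A weak site of unchanged value could thus lie below the lowest value of a degron list and be called lost. The part of this in the share kept of weak sites was not tested. Among weak sites away from promoters that held a core, almost none were kept, at 1.45, 1.15 and 0.341% in the 3 libraries (n = 2343 sites of the weakest quartile). In the next quartiles this class was kept at 1.72% ± 1.54 and 6.96% ± 5.10, where replicate 2 stood above the others (0.882% and 4.08% without it). In the strongest quartile the class reached 34.1% ± 11.5 (n = 3389). Sites away from promoters without a core were kept at 15.7% ± 4.83 (weakest quartile), 6.39% ± 2.04 (second quartile) and 35.3% ± 10.4 (strongest quartile). Promoter sites without a core were kept at 45.8% ± 17.1 in the weakest quartile and 60.1% ± 15.5 in the strongest. Promoter sites with a core were kept at 20.3% ± 10.1 (weakest quartile), 8.72% ± 3.78 (second quartile) and 50.7% ± 14.3 (strongest quartile). In the strongest quartile sites away from promoters were kept at shares within each other's spread whether or not they held a core.

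**Figure D3:**
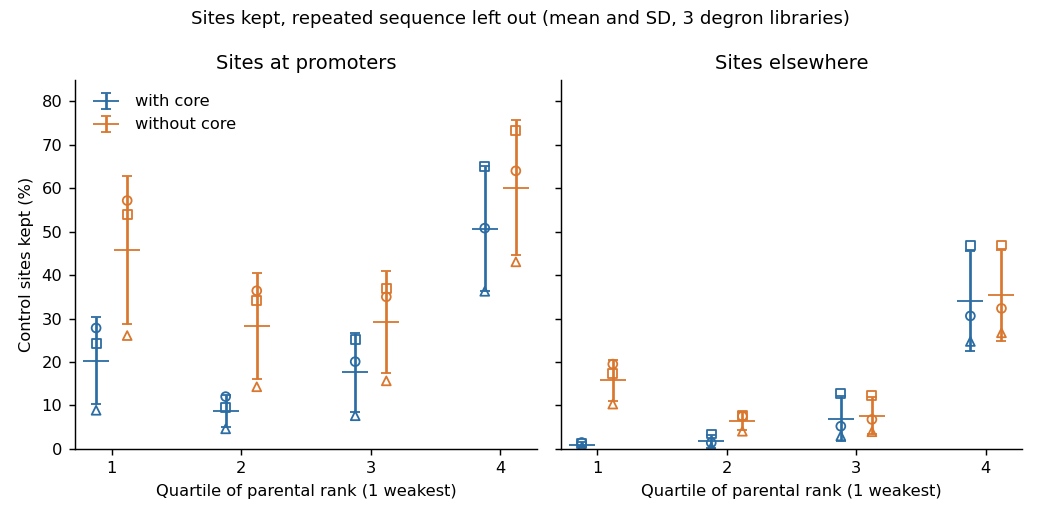
Percent of control sites kept (y axis) by quartile of parental rank (x axis, 1 weakest) at promoters and elsewhere, with and without a core, repeated sequence left out; open symbols are degron replicates 1 (circle), 2 (square) and 3 (triangle), and bars are the mean and SD. Sites elsewhere with a core rise from 0.982% in the weakest quartile to 34.1% in the strongest. Promoter sites without a core start at 45.8%, fall to 28.3% in the second quartile and reach 60.1% in the strongest.

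Cohesin occupancy of the same parental cells gave a similar order for sites with a core. The cohesin subunit Rad21 was measured by ChIP-seq in 3 parental libraries, which were not used to choose the control sites. Titles of Rad21 replicates 2 and 3 name a spike-in, and that of replicate 1 does not. Control sites with a core were kept at 0.626% ± 0.658 where they met no Rad21 list (n = 1012; 0.247% without replicate 2), 1.82% ± 0.983 with 1 list, 3.91% ± 2.25 with 2 and 20.5% ± 7.69 with 3 lists (n = 8456). Sites without a core showed no such order, at 16.5, 35.3, 16.3 and 27.3% for 0, 1, 2 and 3 lists. Rad21 presence and CTCF rank are related measures of strong sites, and their separate parts were not tested.

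The base that follows the core differed between lost and kept sites of the strongest quartile, which were not matched for rank within it. In the strongest quartile away from promoters, position 13, counted from 1 at the first core letter, was G in 32.2% of 1816 sites lost in all libraries and in 50.5% of 792 sites kept in all, and A in 61.3 and 47.2%. The fourth position, which the search left free, was C in 48.8% of lost and 58.6% of kept sites. Upstream, position -3 was T in 37.9% of lost and 50.4% of kept sites. Those shares include repeated sites, and the values by library leave them out. Core sites of this quartile away from promoters were kept at 38.1, 57.1 and 30.6% where followed by G (n = 1358). Those followed by A were kept at 26.4, 41.0 and 21.6% (n = 1868). The share was higher with G in all 3 libraries, while the SD between libraries was 13.7 points with G and 10.1 with A. Mean parental percentile ranks of these G and A sites were close, at 90.5 and 90.1. In the third quartile the share was also higher with G in each library, at 6.49, 17.7 and 3.70% against 4.52, 10.1 and 2.73% with A. The sign was not the same in weaker sites. In the second quartile replicates 1, 2 and 3 kept 0.856, 5.14 and 0.285% with G and 1.35, 2.55 and 0.433% with A. In the weakest quartile the means were 0.861% with G and 0.863% with A. Among the sequences shown above, g follows the core in Zkscan17, Fpgs, Fam92b, Gm5533 and Rbm19 on the kept side, and a follows it in Fam129b, Fbxl17, Mrc1 and Arap1 on the lost side, whereas 1500012F01Rik (kept) has a, Fam69b (lost) g and Atp6v1b2 (lost) c. These positions were picked from all positions after the values were seen and carry no test.

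Several of the strongest parental sites had no peak in any degron list. The site at Stat3, a transcription factor activated by cytokine receptors, had its centre 159 bp downstream of a start (chr11:100754458-100755338). The authors' fold enrichment there was 17.3, 18.5 and 22.3 in the parental libraries, and no degron library had a peak. The promoter sites of Sept9, a septin of the cytoskeleton, and Acin1, an RNA-binding protein linked to chromatin condensation in apoptosis, had parental fold enrichments of 16.9, 16.6 and 19.4 and of 16.1, 15.6 and 20.4. All 3 sites held a core of 9 or 10 letters and met Rad21 peaks in all 3 parental Rad21 lists. The strongest lost exonic sites lay nearest to Abtb2, 6330578E17Rik and Rdh13, with mean parental fold enrichments of 20.1 ± 4.34, 19.3 ± 4.36 and 18.9 ± 1.54 (SD, n = 3). Of the intronic and intergenic lost sites whose sequences are given above, Fam69b had the highest mean, 22.8 ± 6.85 (SD, n = 3). These sites ranked among the strongest of the parental lists and were called lost in each degron library.

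Other strong parental sites had peaks in every degron library. The promoter site of Rapgef1, an exchange factor for the small GTPase Rap1, had parental fold enrichments of 20.3, 26.8 and 31.1 and degron values of 7.10, 13.0 and 6.99, with all 10 core letters matched and its centre 19 bp upstream of a start (chr2:29474762-29475680). At Gins4, a subunit of the replicative helicase, the values were 20.2, 23.0 and 28.6 in parental and 6.74, 8.61 and 4.90 in degron libraries. The intronic site nearest to a start of Fpgs, the gene of the enzyme that adds glutamates to folates, had 15.9, 18.5 and 19.6 against 5.69, 6.13 and 4.87. The intergenic site nearest to Rbm19, a protein of ribosome assembly, had 14.3, 22.8 and 22 against 8.47, 13.4 and 7.54. In each parental library the Rapgef1 and Gins4 sites were stronger than the lost promoter sites of Stat3, Sept9 and Acin1. The named promoter sites thus do not compare lost and kept at equal strength. At Fpgs and Rbm19 the mean parental value was no higher than at the lost sites of the same position shown above. These fold enrichments are the authors' own per peak, and lists of different lengths do not place them on a common scale. At the other end, a lost site in the promoter of Entpd7 had parental fold enrichments of 3.45, 3.55 and 3.54. These lie below 3.94, the lowest value of any degron list. The site was the weakest lost promoter site by rank among those with a core and no repeated sequence. It was chosen after the values were seen.

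The rule for named sites also picked kept peaks of a different kind. At the promoter of the predicted gene Gm10800 on chromosome 2 the fold enrichment was 35741, 34794 and 27825 in the parental and 37142, 39184 and 31622 in the degron libraries, the highest value of every list. The intronic site nearest to Chl1, the gene of a neural adhesion molecule, had 6040, 4828 and 4013 and then 6226, 5619 and 5039. The Gm5614 site shown above had 3500, 3418 and 2782 and then 3659, 3745 and 3204. The values of the groups lay in the same range at these sites, and none of the 3 held a core. By contrast the chloride transporter gene Clcn4-2 and Sh3glb1, which encodes a membrane-bending endophilin, had kept promoter sites with a GC content of 64.3 and 67%, with parental values of 27.6, 26.9 and 45.7 and of 22, 22.9 and 34.2. The degron values there were 10.6, 13.4 and 9.70 and 5.78, 9.21 and 5.00. The exonic sites nearest to Gm10801, Gm17379 and Limd1 were also kept. So were the intronic site nearest to the Mediator kinase gene Cdk8 and the intergenic site near the kinase gene Pak3. At Cdk8 the values were 26.6, 28.7 and 32.7 in parental and 43.2, 70.7 and 46.3 in degron libraries.

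Repeated sequence was more common among kept sites, making up 22.7% of the sites kept in all libraries and 4.97% of those lost in all. A site was called repeated where at least 50% of the 31-base words, taken every 10 bp across the 300 bp around the centre, had further copies in the reference. The 2542 repeated sites were kept in 46.1, 47.9 and 43.1% of cases, and the 30762 other sites in 18.6, 23.8 and 11.8%. Where 90% or more of the words recurred, 61.8% ± 3.25 of 849 sites were kept. Replicates differed less at repeated sites, where the SD over libraries was 2.42 points, than at the others, where it was 6.04. How reads with several matching places were assigned is not given in the sources used here, and its part in these peaks was not tested.

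Along the genome the kept share varied over a similar range between autosomes with and without repeated sequence. With all control sites it ranged from 16.1% on chromosome 18 to 23.7% on chromosome 1. With repeated sequence left out it ranged from 14.8% ± 5.26 on chromosome 18 to 21.9% ± 6.70 on chromosome 17. With all control sites counted, the X chromosome stood apart, with 35.6, 38.6 and 33.3% of 1232 sites kept. On the X, 34.9% of sites were repeated, and without them 12.3, 17.7 and 10.5% of 802 sites were kept, below every autosome mean. The Y chromosome held 35 control sites, of which 90.5% ± 4.36 were kept. Over the 19 autosomes and the X, the share kept without repeated sequence had a Spearman rho of 0.67 with the percent of sites at promoters (n = 20 chromosomes, which share the same libraries; a description with no test). Over all control sites that rho was -0.003, and the share kept had a rho of 0.71 with the percent of repeated sites.

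**Figure D4:**
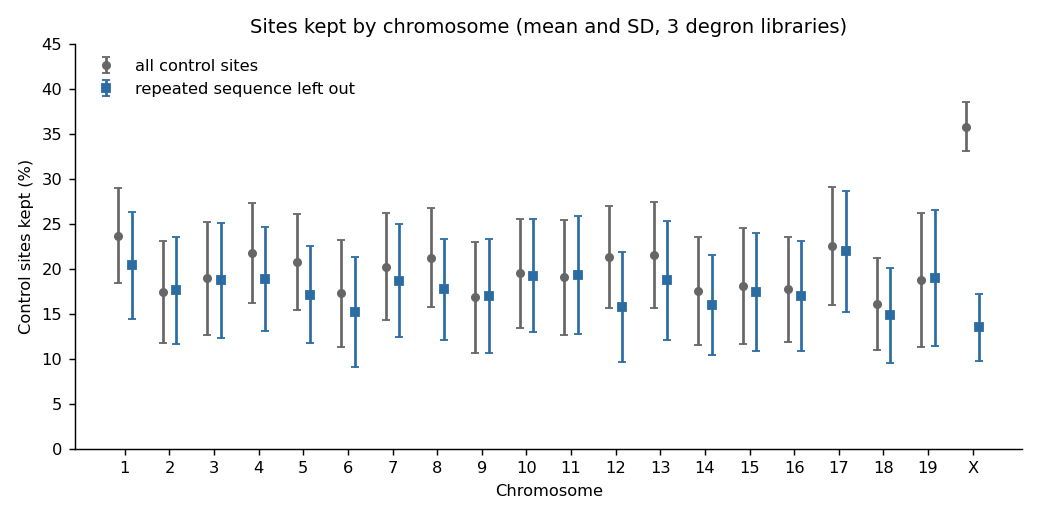
Percent of control sites kept (y axis) on each chromosome (x axis), as the mean and SD of 3 degron libraries, for all control sites and with repeated sequence left out. The X stands at 35.8% with all sites and at 13.5% with repeated sequence left out, while the autosomes lie between 16.1% and 23.7% with all sites.

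Kept sites were spread over 1292 of the 2300 1-Mb bins that held a control site, with a few dense bins. Outside the distal end of chromosome 12, which was left out of this ranking, the 10 fullest 1-Mb bins held 617 kept sites. This was 14.2% of the 4350 sites kept in all libraries, which include those at that end. The fullest, on the X from 120000001 to 121000000, held 139 kept sites out of 150, of which 142 were repeated and 1 had a core. Its neighbour to 122000000 held 107 of 122. The longest unbroken row of kept sites, 43 sites in 301 kb, lay within the first of these bins beside the predicted genes Gm17467, Gm5167 and Gm6604. Further dense bins lay on chromosomes 1, 4, 5, 8 and 13. The longest row of sites lost in all libraries had 45 sites over 15194 kb of the X (chrX:53683832-68877466), a span that includes Aff2 and Arhgef6. On chromosome 6 a row of 35 lost sites spanned 2223 kb and included the transcription factor gene Klf15, the deacetylase gene Hdac11 and Iqsec1.

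A control site was kept more often beside a kept neighbour. Among 17219 sites with another control site within 10000 bp, those beside a kept one were kept in 42.3% ± 1.29 of cases and those beside a lost one in 19.4% ± 6.05. The difference was 22.9 ± 4.81 points and had the same sign in each of the 3 libraries (exact sign-flip permutation p = 0.25, adjusted p = 0.25). With repeated sequence left out it was 10.1 ± 0.694 points, and with multi-copy centres left out 9.29 ± 0.577. It was also smaller with shortened lists (13.6 ± 3.27), joined peaks (15.1 ± 2.92), sites of at least 1 parental library (12.7 ± 3.83) and replicate 1 of each group alone (10.9). Neighbouring sites often share a promoter or a repeat, so they are not independent.

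Counted by gene, 14040 protein-coding genes had at least 1 control site in their body or the 10000 bp on either side. In 7276 of them no site was kept in any degron library, and in 662 every site was kept in all. Over all control sites 71.7% were lost in all libraries and 12.9% were kept in all. Of the genes, 1301 had at least 5 sites. Among these, 228 had no site kept in any library and 8 had every site kept in all. The counts depend on the number of sites per gene and were not tested. The genes with the most sites and none kept were Tmtc1 with 11 sites, Ablim1 and Nrxn3 with 10 each, and Dym and Syn3 with 9 each. Tmtc1 encodes a membrane protein of the endoplasmic reticulum, Ablim1 an actin-binding LIM protein, and Nrxn3 and Syn3 synaptic proteins. Nrxn3 and Syn3 each had a core in 7 of their sites. The genes with the most sites kept in all libraries were of another type. C130026I21Rik on chromosome 1 kept 41 of 54 sites and 2 of its sites had a core. Gm13242 on chromosome 4 kept 18 of 25, and 3110007F17Rik on the X kept 17 of 17, with no core in either. Mid1, a ubiquitin ligase gene at the end of the X, kept 17 of 21. Gm20388, whose annotated span of 4435 kb covers many other genes, kept 19 of 168.

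Gene lists of interest in these cells kept sites at shares that were read against 20.4% kept over all control sites and 71.7% lost in all libraries. Around 24 B-lineage transcription factor genes there were 108 sites, of which 28.7, 26.9 and 13.0% were kept and 65.7% were lost in all libraries. Pax5, which holds B-cell identity, lost 8 of its 12 sites in all libraries, and Erg lost 7 of 8. Tcf4, which encodes an E protein, lost 6 of 7. Ebf1, the factor that specifies the lineage, lost 4 of 9 and kept 1, with 4 in between. Around the pre-B receptor and V(D)J genes, 33.3, 39.1 and 20.3% of 69 sites were kept. Here Xrcc6, which encodes the Ku70 end-joining protein, lost 9 of 11 sites and kept 2, and the receptor tyrosine kinase gene Flt3 lost 5 of 10 and kept 2. Nhej1, the gene of the end-joining factor XLF, lost 4 of 4.

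Genes of the cohesin and CTCF machinery had 44 sites, of which 20.5, 29.5 and 15.9% were kept. Smc3, a core subunit of the cohesin ring, lost 4 of 5 sites, and Ctcf itself lost 3 of 4. Pds5b, a regulator of cohesin release, lost 2 and kept 2 of its 4 sites. Around 25 genes downstream of Abl with sites, 31, 35.6 and 18.4% of 87 sites were kept. Abl1 lost 8 of 9 sites and the cell-cycle kinase gene Cdk6 lost 6 of 7. The survival kinase gene Pim1 kept 2 of 5 sites in all libraries and the pro-apoptotic gene Bcl2l11 kept 2 of 3. The means of the 4 lists lay between 22 and 30.9%, with an SD over libraries of 6.94 to 9.65 points. Over all control sites the 3 libraries kept 20.9, 25.8 and 14.3%. The pre-B receptor and V(D)J list and the genes downstream of Abl were above this in each library. The B-lineage list was below it in replicate 3, and the cohesin and CTCF list in replicate 1. Promoters made up 26.9, 24.6, 34.1 and 23.0% of the sites of the 4 lists in the order given, against 15.3% of all control sites. These differences were not tested.

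Imprinted genes had the lowest mean share kept of the 7 lists, 12.1, 15.2 and 6.06% of 33 sites, with 84.8% lost in all libraries. CTCF at the control region between H19 and Igf2 is the textbook case of an insulator that keeps the maternal Igf2 copy silent. Both sites assigned to H19 and both assigned to Igf2 were lost in all libraries, as were all 3 of Kcnq1, all 3 of Cdkn1c, all 3 of Rasgrf1 and all 4 of Gnas. Sites were assigned by the gene body and the 10000 bp on either side. Whether the H19 and Igf2 sites lie in the control region was not examined. A core was held by 1 of the 2 H19 sites and by neither Igf2 site. Trappc9 lost 5 of 6 sites and kept 1. Ube3a, the ubiquitin ligase gene expressed from the maternal copy in neurons, kept 1 of 2. Of these sites 12.1% were at promoters, against 15.3% of all control sites. Ribosomal protein genes had the highest mean share, with 36.8, 38.2 and 22.9% of 144 sites kept, 56.9% lost in all libraries, and 50% of these sites at promoters. Rpl3 and Rplp2 each lost 4 of 4 sites and Rpl22 lost 4 of 5. Rpl13a kept 3 of 3 sites and Rps2 2 of 4. For the Hox clusters the libraries differed widely, at 14.3, 42.9 and 4.76% of 21 sites, and the mean was 20.6% with and 9.52% without replicate 2. In replicate 3 the Hox share lay below that of the imprinted genes.

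**Figure D5:**
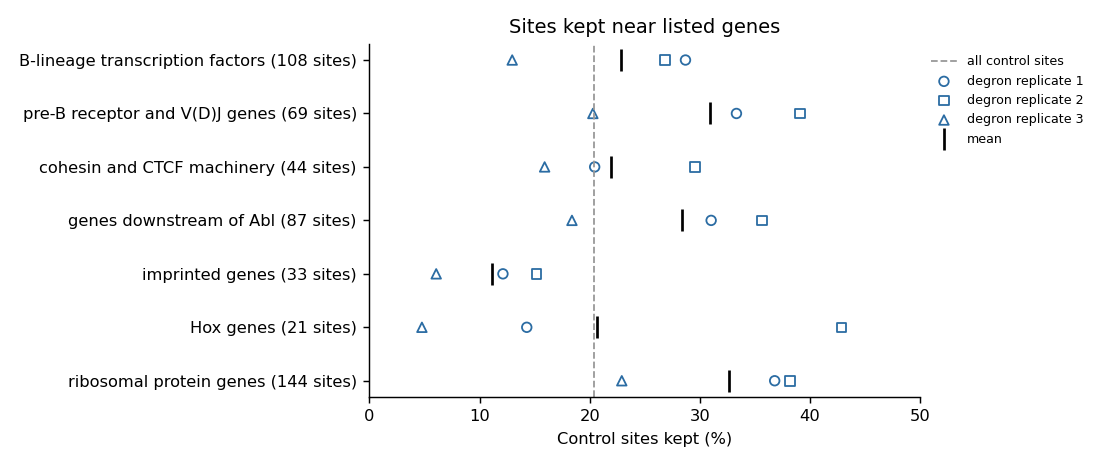
Percent of control sites kept (x axis) near the genes of 7 lists; open symbols are the 3 degron replicates, vertical ticks their mean, and the dashed line the mean over all control sites (20.4%). Imprinted genes have the lowest mean, at 11.1%, and ribosomal protein genes the highest, at 32.6%.

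Few sites were gained. Of 5823 sites with a peak in all 3 degron libraries, 212 met no parental peak. Of these, 62.7% were at promoters and 3.30% held a core. The strongest lay at the promoters of Zfand6, which encodes a zinc-finger protein, Dda1, a partner of the DDB1 ubiquitin ligase, and Ppp2r5d, a regulatory subunit of the phosphatase PP2A. The Zfand6 site had degron fold enrichments of 5.52, 7.68 and 6.12. The number depended on the libraries asked for, with 870 sites without degron replicate 3 and 570 without parental replicate 1. Single lists held more such peaks: 21.3, 15.6 and 12% of the peaks of degron replicates 1, 2 and 3 met no parental peak, and of these 39.5, 42.3 and 38.1% were at promoters and 1.92, 2.05 and 1.76% held a core.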

How the data were processed

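CTCF ChIP-seq peak lists of 6 libraries, and 3 parental Rad21 lists, were used as deposited, 1 list per library. Column 7 holds the authors' fold enrichment per peak (a ratio), used to rank peaks within a list and as a threshold. Column 9 holds the authors' −log10 q-value, used as an alternative threshold. Bowtie2 2.2.8 and SAMtools 1.8 are named by the submitters' processing notes, and a hybrid of mm9 with its own immunoglobulin heavy-chain sequence per the labels' protocols. The peak caller, its threshold and the use of input libraries are not given in the sources used here. The lists carry no read counts, so depth is unknown and no interval for depth can be given.

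Peaks were merged, overlapped and annotated with Python 3.11.15, numpy 2.4.6 and pandas 2.3.3 against the NCBIM37 (mm9) sequence and GENCODE genes. Position was set by the centre: within 1000 bp of a protein-coding transcript start, then exon, intron or intergenic. Exact permutation tests compared libraries, two-sided, and were adjusted by Benjamini-Hochberg within 5 tests between groups and 4 differences within degron libraries. The overlap script was tested on simulated data.

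Named sites were, per position, the 3 lost and the 3 kept in all degron libraries with the highest parental rank, outside chromosomes 12 and 18 and single-copy at the centre. The 3 strongest gained sites were named too. Named genes were the 5 with most sites and none kept and the 5 with most kept. In each gene list the rule was up to 3 members with most lost and most kept sites. Not every such member or tie is printed, 1 item is not reported here, and Ebf1, H19, Igf2 and members tied for the third place were named after their values were seen. Sites kept with a core and no repeated sequence, and the weakest lost site, were chosen after their values were seen, as was the repeated-sequence measure. The members and lists were chosen with earlier results of these data known. The lists are of B-lineage transcription factors, pre-B receptor and V(D)J genes, cohesin and CTCF machinery, genes downstream of Abl, imprinted genes, Hox genes and ribosomal protein genes.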

Additional observations from a re-analysis of the deposited data

How the results depend on the processing

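Of 167 alternative values of tested results, 6 reversed and 1 was 0 (peak number with shortened lists), and no test could reach 0.05 in a design of this size. The difference in the intergenic share reversed to 2.36 points with q of 0.001 or less and to 0.88 with replicates 2 and 3 alone, and ranged from -3.00 to 1.53 when 1 library was left out. The strongest-minus-weakest quartile difference was -1.01 points with 50% of the site covered. The share kept was 14.4% at q of 0.001 or less, 39.6% with all lists shortened to the shortest by fold enrichment and 6.22% with 50% of the site covered. Sites lost in all libraries numbered 2798 with shortened lists, 41660 with replicate 1 of each group alone and 51561 with sites of at least 1 parental library. Sites kept in all numbered 1867 at q of 0.001 or less, 1683 with shortened lists, 10697 with replicate 1 alone and 769 with 50% of the site covered. Gained sites numbered 1107 at fold enrichment of 4 or more, 1786 with shortened lists, 4637 with replicate 1 alone, 726 with replicates 2 and 3 alone and 276 to 870 when 1 library was left out. Fewer libraries or shorter lists change these counts by construction; the cause of the other changes was not tested. Same-numbered libraries did not deviate together at the sites kept in all (r = 0.24, -0.22 and -0.33). With 3 libraries a group and sites chosen as kept, this cannot show whether the numbers pair them. With a replicate block the differences were unchanged, at -1.95 (log2) for peak number, -0.29 for width, 16.9 points for promoters, -0.33 for intergenic and -19.6 for the core, with an exact sign-flip permutation p = 0.25 in 4 of them and 1 for intergenic. Depth is unknown, so a lost site is one with no called peak and may still bind CTCF below the threshold.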
